A study of Homo sapiens with 9 samples.

Results

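The GATA factors of the pancreatic cancer line PANC-1 were followed in nascent RNA, as 5 genes of the 57733 in each deposited table: GATA6, its divergent transcript GATA6-AS1, GATA2, GATA3 and GATA4. They were taken by symbol, and they were chosen with the values of these libraries known, GATA6 because it stood low in 1 knockout clone. Their differences between lines are therefore given as a description with standard errors, and nothing is supported with them. The lines were PANC-1 without a guide RNA (genotype WT) and a pair of CRISPR/Cas9 clones with KDM6A (UTX) as the target, KDM6A KO C22 and KDM6A KO C28, each of them a single clone of a cell line grown in culture. Every line received 2 mM bromouridine for 30 min with 0 h between labelling and RNA extraction. Bru-seq, which sequences the RNA made during the labelling, has 2 libraries per line, and BruUV-seq, in which cells were also irradiated with 100 J/m2 of UV light, has 1 library per line. The labels do not say that replicates came from separate cultures, so every p-value measures only the spread between these samples.

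GATA factors are zinc finger proteins named after the DNA letters they bind. GATA6 and GATA4 act in endoderm and in the developing pancreas, and GATA6 is known in pancreatic tumours as a marker of the classical subtype and for holding cells in an epithelial state. GATA2 and GATA3 are best known from blood progenitors, T cells and breast epithelium. GATA6-AS1 is a long noncoding RNA made from the opposite strand just upstream of GATA6, as is common at such promoters, and KDM6A encodes an enzyme that takes methyl groups off histone H3, a mark set by Polycomb complexes.

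GATA6 (ENSG00000141448.8) lies on chromosome 18 at 22169443 to 22202528, plus strand, and GATA6-AS1 (ENSG00000266010.1) at 22166898 to 22168968, minus strand, in the GRCh38 coordinates of the tables. Their RefSeq starts are 621 bases apart. The promoter windows of the pair, 250 bases before to 50 after each start as RefSeq has it on GRCh38.p14, are shown because one start of the pair gave reads and the other almost none; capitals mark CG dinucleotides.
GATA6, chr18:22169339-22169638, plus strand: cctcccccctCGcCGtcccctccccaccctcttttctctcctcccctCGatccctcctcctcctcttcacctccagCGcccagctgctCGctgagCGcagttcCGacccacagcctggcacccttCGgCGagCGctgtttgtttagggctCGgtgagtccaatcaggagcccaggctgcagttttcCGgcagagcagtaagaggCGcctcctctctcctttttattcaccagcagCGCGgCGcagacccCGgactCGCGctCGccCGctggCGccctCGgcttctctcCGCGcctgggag
GATA6-AS1, chr18:22168919-22169218, minus strand: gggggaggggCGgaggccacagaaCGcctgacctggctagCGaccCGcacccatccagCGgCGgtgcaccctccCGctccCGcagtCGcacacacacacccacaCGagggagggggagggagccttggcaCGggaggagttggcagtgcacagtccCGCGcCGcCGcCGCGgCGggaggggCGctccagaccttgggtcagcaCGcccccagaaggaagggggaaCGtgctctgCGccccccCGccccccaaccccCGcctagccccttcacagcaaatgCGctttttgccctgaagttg
Each window holds 25 CG dinucleotides, against a median of 14 over 35116 promoter windows, of which 68.0% hold fewer. GC content was 66.7% for GATA6 and 71.3% for GATA6-AS1. The RefSeq start of GATA6 lies 146 bases from the start in the deposited tables, and that of GATA6-AS1 lies at the same base. Of the 5 genes 4 had a window, and the windows of GATA2 and GATA3 hold 29 CG dinucleotides each. None of the 4 windows has, on either strand, the extended GATA motif (A or T, then GATA, then A or G) that 25.0% of all windows hold. On the strand of its gene, none has TATAAA, which 7.33% of windows hold there. The shorter GATA, which is part of the extended motif, occurs on either strand in 49.7% of windows and 1 time among these 4, in that of GATA3. Matches in letters describe the window only.

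The libraries held 14.4 to 31.1 M estimated reads in genes, except Bru-seq KO C28 replicate 2 with 5.64 M. That library stood apart. Its reads in genes fell 46.5% short of the total implied by the authors' RPKM (reads per kb scaled to library size). The remaining Bru-seq libraries fell 10.8% to 20.0% short. Which reads that total holds is not known, so where the missing reads lie was not measured. Read counts of KO C28 are given by library. KDM6A itself was transcribed in all 9 libraries, at 79.0 to 435 CPM (counts per library total, scaled by TMM), which does not test for a small CRISPR lesion. Of 7 epithelial or ductal markers 6 reached 10 reads in every library, with a summed level of 316 to 654 CPM in WT, 192 to 528 in KO C22 and 395 to 2544 in KO C28, and so did 3 of 3 mesenchymal markers. Of 20 markers of fibroblasts, immune cells, mast cells or blood progenitors, erythroid cells, endothelium, and acinar and islet cells none did. The highest sum of each of those 6 lists was in Bru-seq KO C28 replicate 2, up to 16.9 CPM for endothelium. In these bulk samples, fewer transcribing cells and less RNA per cell cannot be told apart.

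GATA6 was transcribed in WT and in KO C22 and was almost without reads in Bru-seq of KO C28. It gave 117 and 410 reads for WT in Bru-seq, 391 and 541 for KO C22, and 8 and 1 for KO C28. Scaled to library size these were 5.30 and 17.0 CPM for WT, 18.9 and 24.5 for KO C22, and 0.493 and 0.148 for KO C28. Both KO C28 libraries lay below all 4 others, and both KO C22 libraries lay above WT, the nearest pair being 18.9 against 17.0 CPM. The 2 WT libraries differed from each other by more than the higher of them differed from KO C22. A count of 3 reads corresponds to 0.185 CPM in KO C28 replicate 1 and 0.445 CPM in replicate 2, so the value of replicate 2 lies below the level of 3 reads.

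BruUV-seq gave GATA6 in all 3 lines. It counted 193 reads in WT, 66 in KO C22 and 46 in KO C28, or 8.11, 4.99 and 2.45 CPM. KO C28 was again the lowest, but KO C22 lay below WT here and above it in Bru-seq. With n = 1 library per line, BruUV-seq has no replicate check. From the reads alone, WT exceeded KO C28 by a ratio of 29.1 in Bru-seq (95% exact binomial counting interval 15.2 to 64.0, libraries summed) and 3.31 in BruUV-seq (2.39 to 4.67). KO C22 over KO C28 was 55.5 (29.1 to 121.8) and 2.04 (1.38 to 3.04), and WT over KO C22 was 0.524 (0.470 to 0.584) and 1.62 (1.22 to 2.18). These intervals cover counting error only, since reads without molecular identifiers can be PCR copies, and they leave out the spread between libraries.

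**Figure D1:**
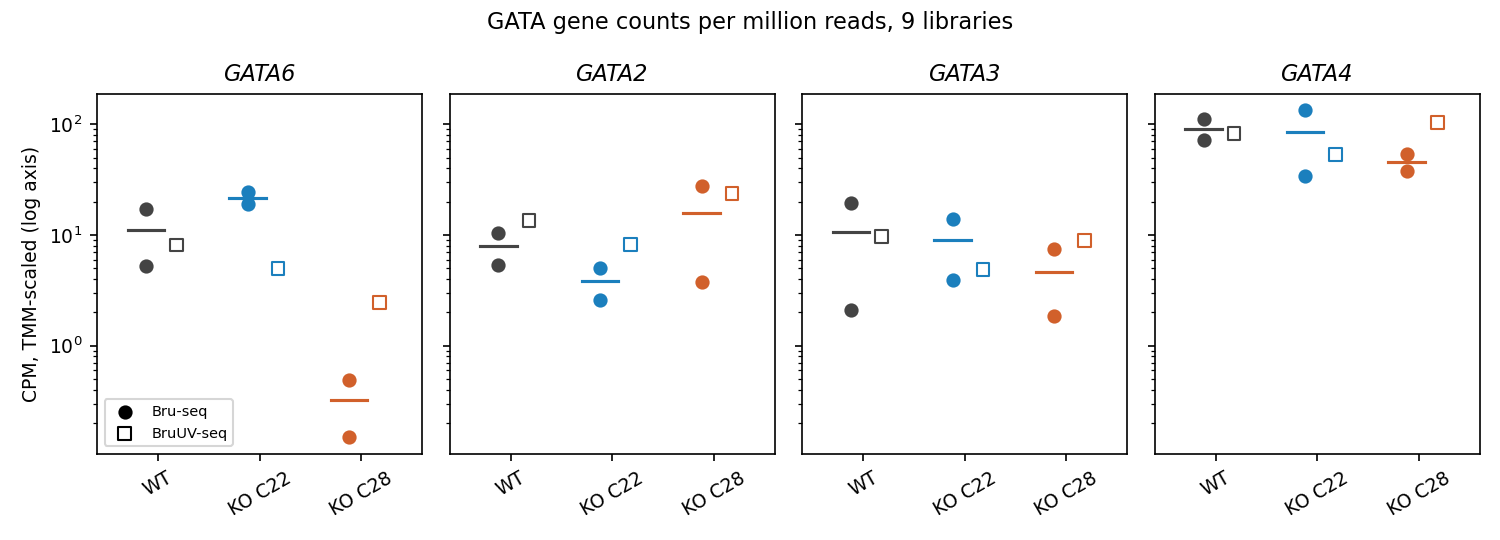
Level of GATA6, GATA2, GATA3 and GATA4 in each of the 9 libraries, in CPM on a log axis, with Bru-seq as filled points, their mean per line as a bar, and BruUV-seq as open squares. GATA6 stands at 0.493 and 0.148 CPM in the KO C28 Bru-seq libraries, while GATA4 stays between 33.8 and 135 CPM in all 9.

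In the edgeR quasi-likelihood fit of the 6 Bru-seq libraries, 22827 genes were tested, and 4 of the 5 GATA genes passed its filter on low counts; GATA6-AS1 did not. The log2 fold change of GATA6 was 1.00 (SE 0.87) for KO C22 against WT, -5.06 (SE 1.06) for KO C28 against WT and -6.06 (SE 1.10) for KO C28 against KO C22, n = 2 libraries per line. These comparisons share libraries and are not independent. Without KO C28 replicate 2 the changes for KO C28 were -4.51 against WT and -5.42 against KO C22, and without WT replicate 2 the change against WT was -4.01. With BruUV-seq added to the fit (23443 genes, assay as a covariate) they were 0.72 (SE 0.89), -3.32 (SE 1.03) and -4.04 (SE 1.11). For KO C28 against WT in Bru-seq, 110 of the 22827 genes had a lower fold change than GATA6 and 17 a smaller p. GATA6 was chosen because it stood low in these libraries, so this place follows from the choice and supports nothing.

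None of the 4 GATA genes tested passed a Benjamini-Hochberg adjusted p of 0.05 in edgeR on Bru-seq. Of all genes tested, 0.00438% passed as lower in KO C22 and 0.00438% in KO C28, in each case 1 gene, AFAP1-AS1, and 458 and 1434 genes had an unadjusted p under 0.05. Between the clones 0 of 22827 genes passed in edgeR, with 747 at an unadjusted p under 0.05 and 53 by DESeq2. DESeq2 and a fit without the filter both passed GATA6 for KO C28, against WT and against KO C22, and these values stand with the other settings in the closing section. In these comparisons DESeq2 passed 205 of 15746 and 53 of 17516 genes, and the fit without the filter 190 and 12 of 39086. Since the gene was chosen on these contrasts, such calls describe the settings. Without KO C22 replicate 1 the changes of GATA6 for KO C28 were -5.09 against WT and -6.19 against KO C22. Without KO C22 replicate 2 they were -5.10 and -5.94. Non-overlapping pairs of libraries are common in this design: of all genes, 17.5% had both KO C28 libraries below both WT libraries, 13% had them below both KO C22 libraries, and 11.2% had both KO C22 libraries above both WT libraries.

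GATA6-AS1 stayed at the limit of counting in every line. Bru-seq of WT gave 0 and 1 reads, that of KO C22 also 0 and 1, and that of KO C28 gave 0 and 0. BruUV-seq gave 1 read in WT and 0 in either clone. No fold is given, since no group exceeds the 3 reads that a count of 0 allows. A count of 3 reads is 0.124 to 0.445 CPM in the Bru-seq libraries. GATA6-AS1 thus gave no measurable transcript over its 2.071 kb, also where GATA6 had 541 reads. Other annotated genes on the strand opposite GATA6, AC091588.1, RNU6-702P and AC091588.3, overlap at most 5.77% of it and held at most 8 reads.

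GATA4 was the most transcribed of the 5 genes per length in WT. It lies on chromosome 8 (11676959 to 11760002, plus strand, ENSG00000136574.17). It gave 1579 and 2692 reads for WT in Bru-seq, 700 and 2986 for KO C22, and 876 and 257 for KO C28. BruUV-seq of the same lines, in this order, gave 1952, 703 and 1965. In CPM the WT pair was 71.5 and 111.6, the KO C22 pair 33.8 and 135, and the KO C28 pair 54.0 and 38.2. The KO C28 pair lay below the WT pair, as for 17.5% of all genes, and inside the range of KO C22. Its log2 fold changes were -0.11 (SE 0.71) for KO C22 against WT, -1.13 (SE 0.72) for KO C28 against WT and -1.02 (SE 0.71) between the clones. In BruUV-seq the order differed, with KO C28 the highest at 104.7 CPM against 82.0 in WT and 53.2 in KO C22.

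GATA2, on chromosome 3 (128479427 to 128493185, minus strand, ENSG00000179348.11), was low in one KO C28 Bru-seq library and high in the other. Bru-seq read counts were 231 and 129 for WT, 104 and 57 for KO C22, and 61 and 188 for KO C28, or 10.5 and 5.35, 5.02 and 2.58, and 3.76 and 27.98 CPM. The high value of KO C28 came from replicate 2, the library that stands apart. BruUV-seq also had its highest GATA2 level in KO C28, with 448 reads (23.9 CPM) against 323 in WT (13.6 CPM) and 109 in KO C22 (8.24 CPM). In both assays KO C22 was the lowest in mean level, and its Bru-seq pair lay below the WT pair, as for 17.1% of all genes. Log2 fold changes were -0.99 (SE 0.99) for KO C22 against WT, 0.63 (SE 0.98) for KO C28 against WT and 1.62 (SE 1.00) between the clones. Without KO C28 replicate 2 the changes for KO C28 were of the other sign, -1.07 against WT and -0.034 against KO C22, so the direction in KO C28 rests on that library in Bru-seq.

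GATA2-AS1 starts on the opposite strand and overlaps 28.9% of GATA2. It gave 366 and 707 reads for WT in Bru-seq, 292 and 704 for KO C22, and 141 and 239 for KO C28, more than GATA2 in every one of these 6 libraries. Library preparation is labelled strand-specific for certain samples only. Among genes nested inside an expressed gene of the opposite strand, 84.7% to 91.9% per library lay below 10% of their host's RPKM. Since the counting rule is not known, this does not settle whether the libraries kept strands apart.

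GATA3, on chromosome 10 (8054693 to 8075198, plus strand, ENSG00000107485.15), varied widely between the Bru-seq replicates of each line. Its Bru-seq reads were 46 and 467 for WT, 82 and 311 for KO C22, and 30 and 50 for KO C28, and in CPM 2.08 and 19.3, 3.96 and 14.1, and 1.85 and 7.42. The 3 ranges overlap. BruUV-seq gave 231, 65 and 166 reads in WT, KO C22 and KO C28, or 9.70, 4.91 and 8.84 CPM. Log2 fold changes were -0.24 (SE 1.11), -1.54 (SE 1.15) and -1.30 (SE 1.14) for KO C22 against WT, KO C28 against WT and KO C28 against KO C22. Without WT replicate 2 the change of KO C28 against WT was 0.82, of the opposite sign. GATA3-AS1 had at most 3 reads in any library.

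Set in order by RPKM, the authors' reads per kb of gene scaled to library size, WT Bru-seq ran GATA4 at 0.908 (SD 0.248), GATA2 at 0.480 (SD 0.236), GATA3 at 0.424 (SD 0.477), GATA6 at 0.275 (SD 0.197) and GATA6-AS1 near 0 (n = 2 libraries). Among themselves, GATA2, GATA3 and GATA6 do not differ in this order beyond their spread. In KO C22 GATA6 moved to the second place, with 0.493 (SD 0.0341) below GATA4 at 0.699 (SD 0.468) and above GATA3 at 0.305 (SD 0.184) and GATA2 at 0.225 (SD 0.150); GATA4 and GATA6 there lie within the spread of GATA4. In KO C28 GATA2 led with 0.770 (SD 0.749), ahead of GATA4 at 0.433 (SD 0.197) and GATA3 at 0.155 (SD 0.107), and GATA6 followed at 0.0131 and 0.00287 in its 2 libraries. The lead of GATA2 came from replicate 2, at 1.30 against 0.294 for GATA4, while replicate 1 had 0.241 against 0.573. In BruUV-seq of each line GATA6 was below GATA2, GATA3 and GATA4, at 0.229 in WT, 0.125 in KO C22 and 0.0723 in KO C28.

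The comparison of BruUV-seq with Bru-seq asks how UV light changed the read level over each gene. It holds the KO C28 Bru-seq libraries on which GATA6 was chosen, so its value for GATA6 is a description with no test. GATA2, GATA3 and GATA4 did not pass it in edgeR or DESeq2, and 0 of these 3 had an unadjusted p under 0.05, as 23.4% of all genes did. Over all 9 libraries with line as a covariate, the log2 fold change was 0.26 (SE 0.89) for GATA6. It was 0.82 (SE 0.58, edgeR adjusted p = 0.392) for GATA2, 0.02 (SE 0.78, adjusted p = 0.988) for GATA3 and 0.18 (SE 0.47, adjusted p = 0.831) for GATA4. An adjusted p under 0.05 was reached by 0.00427% of 23443 genes, 1 gene, IER2. By line, the BruUV-seq level of GATA6 over its mean Bru-seq level was 0.727 in WT, 0.230 in KO C22 and 7.64 in KO C28, whereas GATA2 had 1.72, 2.17 and 1.504. GATA3 had 0.905, 0.545 and 1.91, and GATA4 had 0.895, 0.6297 and 2.27. The effect of KO C28 against WT on GATA6 in BruUV-seq minus that in Bru-seq was 3.26 on the log2 scale (SE 1.73), given without a test since GATA6 was picked for the second of these. Leaving out a KO C28 library turned the sign of the GATA6 assay difference, to -0.26, -0.39 or -1.20.

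**Figure D2:**
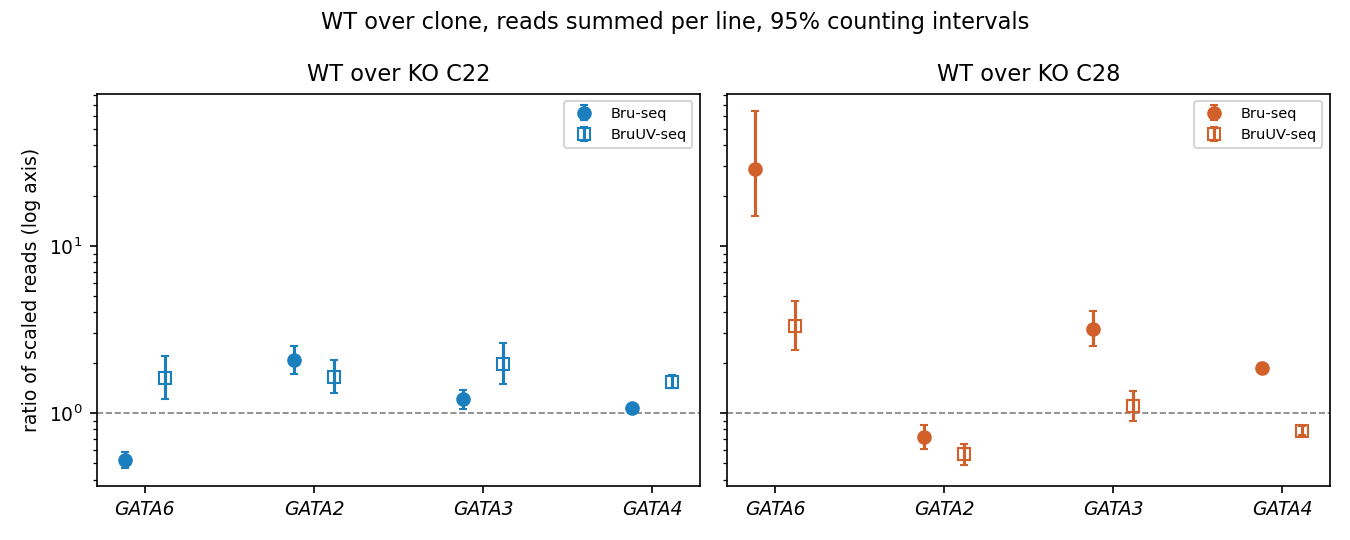
Ratio of scaled reads of WT over KO C22 (left) and over KO C28 (right) for GATA6, GATA2, GATA3 and GATA4 on a log axis, with libraries summed per line; bars are 95% counting intervals, filled points Bru-seq and open squares BruUV-seq. GATA6 is the farthest from 1, at 29.1 for WT over KO C28 in Bru-seq, and stands at 3.31 in BruUV-seq.

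Among chromosome 18 genes around GATA6 with a mean of 100 reads or more per library, the lowest change in KO C28 was -2.65, for CABLES1, beside -5.06 for GATA6. Within 2 Mb of the GATA6 start the tables list 67 other genes, of which 24 were tested and 43 were not, 18 of them without a read in any library. Of these, 0 passed edgeR in any of the 3 line comparisons, against the background percentages above. An unadjusted p under 0.05 was met by 1 of 24 in KO C22, 4 in KO C28 and 0 between the clones. Of all genes tested, 2.01%, 6.28% and 3.27% met it in the same comparisons. In KO C28 against WT, 18 of the 24 were lower and 6 higher, with a median log2 fold change of -0.54, beside -0.08 over all genes tested and -0.09 over 424 tested genes of chromosome 18. In KO C22 against WT, 12 were higher and 12 lower, with a median of -0.09 beside 0.07 over all genes and 0.29 over chromosome 18. Of the 15 neighbours with a mean of 100 reads or more per library, 14 were lower in KO C28 than in WT, from -2.65 to 0.30. Of all 22827 genes tested, 12025 were lower in KO C28. No such count was made over all genes at that read level, so whether the share is particular to these neighbours was not tested. The median over all 24 in BruUV-seq was -0.48 for KO C28 and -0.41 for KO C22 (n = 1 library per line). A window of 1 Mb (11 tested) gave -0.60 for KO C28 and one of 5 Mb (37 tested) gave -0.31.

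Leaving out antisense, LINC, small RNA, clone-named and pseudogene symbols, the nearest tested genes before GATA6 are MIB1, ABHD3, SNRPD1 and ESCO1. MIB1, a ubiquitin ligase of the Notch pathway that starts at -428 kb, had 4954 and 3841 reads for WT in Bru-seq, 3990 and 6317 for KO C22, and 3542 and 889 for KO C28. Against WT its log2 fold change was 0.35 (SE 0.69) for KO C22 and -0.25 (SE 0.69) for KO C28. ABHD3 (-465 kb), a phospholipase, had -1.08 (SE 0.61) in KO C28, the spliceosome subunit SNRPD1 (-557 kb) had -0.10 (SE 0.63), and the cohesin acetyltransferase ESCO1 (-569 kb) had -0.94 (SE 0.63). None of the 4 passed the test, which 1 of 22827 genes passed for KO C28 against WT. Their changes are not a like comparison with the -5.06 of GATA6, which was chosen because it stood low in KO C28.

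After GATA6 come RBBP8, CABLES1, TMEM241 and RIOK3. RBBP8, which encodes the DNA end resection factor CtIP and starts at 764 kb, had 2759 and 1251 reads for WT in Bru-seq, 2345 and 2346 for KO C22, and 1173 and 354 for KO C28, with a log2 fold change of -0.65 (SE 0.65) in KO C28. CABLES1, a CDK-binding protein at 965 kb, was the one that differed most of the 8. It gave 2307 and 4264 reads for WT in Bru-seq, 397 and 1248 for KO C22, and 312 and 228 for KO C28. BruUV-seq counted 3800, 318 and 1525 for the same lines. Both clones lay below WT in both assays, by log2 fold changes of -1.88 (SE 0.66) for KO C22 and -2.65 (SE 0.68, edgeR adjusted p = 0.728) for KO C28 in Bru-seq. Of all genes tested, 17.1% had both Bru-seq libraries of KO C22 below both of WT, and 17.5% had those of KO C28 below. DESeq2 passed CABLES1 in KO C28 (-2.52, adjusted p = 0.0336), as did edgeR without the filter (-2.77, adjusted p = 0.0491). For KO C28 against WT these settings passed 205 of 15746 and 190 of 39086 genes. TMEM241 (1268 kb) had -1.70 (SE 0.61) and the kinase RIOK3 (1283 kb) had -0.49 (SE 0.59) in KO C28. CABLES1 was low in the clone in which GATA6 was at its highest in Bru-seq, and the difference between the patterns of these genes was not tested.

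The largest fold changes within 2 Mb otherwise belong to genes with few reads. These were AC090772.2 (3.42) and AC010754.1 (2.69) in KO C22 against WT, Y_RNA (-7.27), AC010754.1 (2.80) and LINC01900 (2.69) in KO C28 against WT, and Y_RNA (-6.02), ANKRD29 (2.67) and AC090772.2 (-1.35) between the clones. Each had at most 45 reads in any library, and the fitted change of a gene with no reads in a line depends on the prior count and is no bound.

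**Figure D3:**
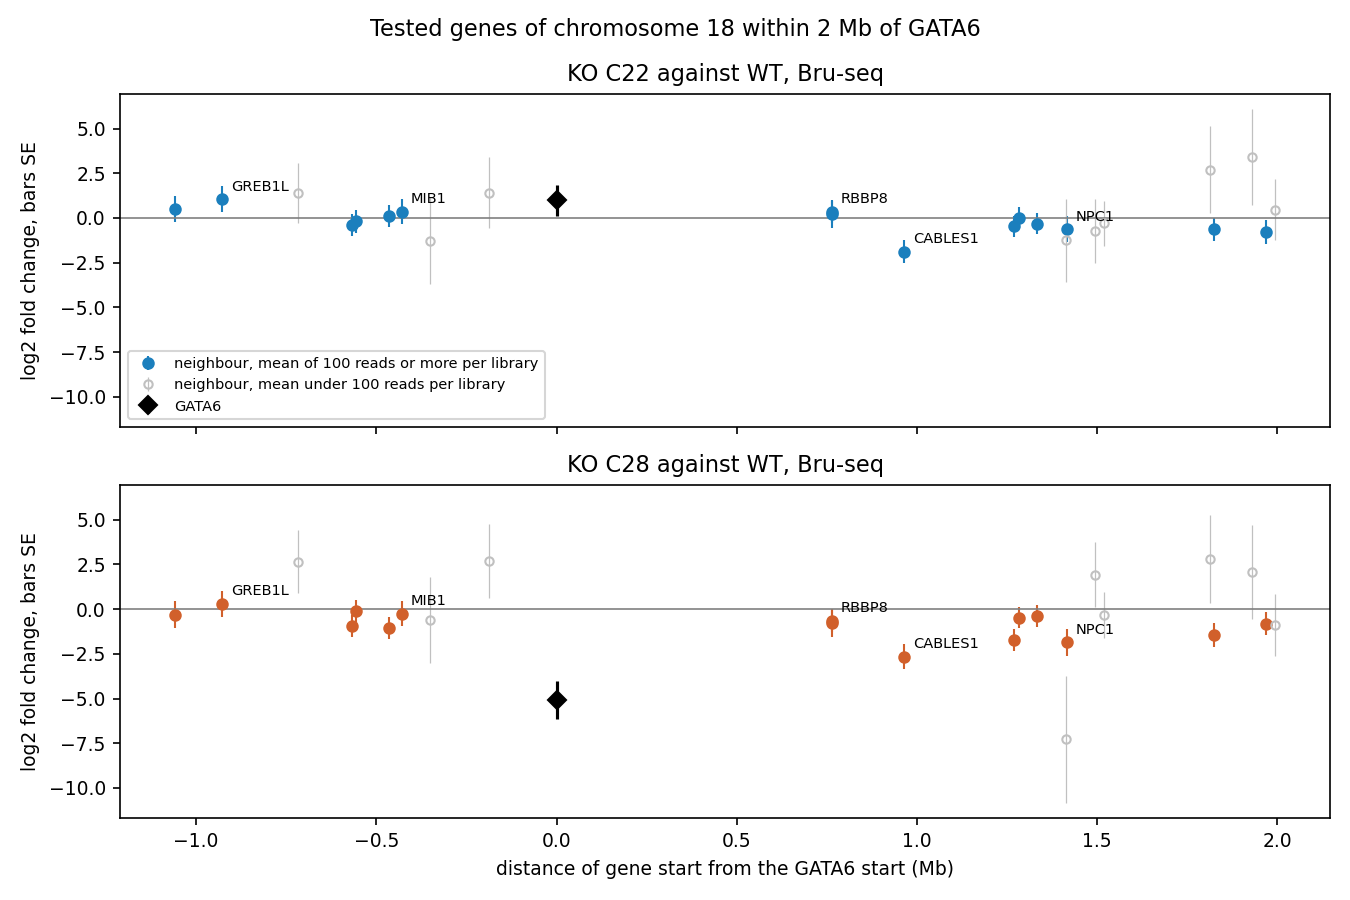
Log2 fold change with its standard error of each tested gene within 2 Mb of GATA6, by distance of its start from that of GATA6 in Mb, for KO C22 and KO C28 against WT in Bru-seq. GATA6 (diamond) is at -5.06 in KO C28, and the 15 neighbours with a mean of 100 reads or more lie from -2.65 (CABLES1) to 0.30.

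Other genes with GATA-type zinc fingers were counted next. Of 7 listed, 5 were tested, and in the Bru-seq libraries none passed edgeR or DESeq2 in any line comparison, nor an unadjusted p of 0.05. Of all genes tested, 2.01% in KO C22, 6.28% in KO C28 and 3.27% between the clones met the latter. In KO C22, 3 of 5 were higher than in WT (median log2 fold change 0.44), and in KO C28 1 of 5 was (median -0.48). Between the clones 1 of 5 was higher in KO C28 (median -0.92), with -1.15 (SE 0.68) for GATAD2A, a subunit of the NuRD complex, and -1.21 (SE 0.87) for the repressor TRPS1. GATA5, a close relative of GATA4 and GATA6, gave 163 and 242 reads for WT in Bru-seq, 51 and 48 for KO C22, and 99 and 114 for KO C28. BruUV-seq of the same lines, in this order, gave 274, 82 and 330. Its levels in KO C22 were below WT and KO C28 in both assays (2.46 and 2.15 CPM against 7.38 and 10.0 in WT), with a log2 fold change of -1.86 (SE 0.89) against WT. When BruUV-seq was added the value was -1.54 (SE 0.58, edgeR unadjusted p = 0.0228, adjusted p = 0.754) against WT. Of all genes tested, 17.1% had both KO C22 libraries below both of WT, and 16.4% had both KO C28 libraries above both of KO C22. GATA1, the erythroid factor, had 0 to 4 reads in every library but Bru-seq KO C28 replicate 2, where it had 47. In that library GATA6 stood below GATA1 per length, at 0.00287 against 0.575 RPKM.

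Cofactors and partners of GATA proteins were mostly at higher fold changes in KO C22, in part on few reads. Of 18 listed, 1 was at 0 reads in all libraries and 14 were tested; 12 of 14 were higher in KO C22 than in WT (median 0.57, beside 0.07 over all genes) and 8 of 14 in KO C28 (median 0.45, beside -0.08). None passed in edgeR on Bru-seq. An unadjusted p under 0.05 was met by 1 of 14 in KO C22 and 2 of 14 in KO C28, beside 2.01% and 6.28% of all genes. ZFPM2 (FOG2), a zinc finger cofactor that binds GATA4 and GATA6, gave 305 and 249 reads for WT in Bru-seq, 1371 and 1943 for KO C22, and 670 and 237 for KO C28. BruUV-seq of the same lines, in this order, gave 71, 209 and 174. Scaled, these were 13.8 and 10.3 CPM for WT, 66.2 and 87.9 for KO C22, and 41.3 and 35.2 for KO C28, so that all 3 lines were separate in Bru-seq. Of all genes tested, 11.2% lay above WT in this way in KO C22 and 18.7% in KO C28. Its log2 fold change in KO C22 was 2.71 (SE 0.61, edgeR adjusted p = 0.771), and it rose in KO C22 in the fit with both assays (2.597, SE 0.35, adjusted p = 0.0184), where 0.158% of 23443 genes passed (0.0981% in KO C28). DESeq2 on Bru-seq passed it as well (adjusted p = 0.00296), as it did 91 of 14418 genes for KO C22 against WT. MEF2C, a MADS-box partner of GATA factors, gave 2383 and 6930 reads for WT in Bru-seq, 4422 and 12254 for KO C22, and 889 and 234 for KO C28. KO C28 against WT was -2.27 (SE 0.82) on the log2 scale and -3.24 (SE 0.85) between the clones. It did not pass in edgeR and passed between the clones in DESeq2 (adjusted p = 0.00895), as did 53 of 17516 genes. The T-box factor TBX20 had 4.85 (SE 2.22) in KO C28 against WT on 13 and 55 reads and did not pass. In the KO C22 Bru-seq libraries it had 39 and 1 reads, beside 5 and 0 in those of WT.

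Endodermal and pancreatic factors, which include partners and targets of GATA6 and GATA4, were split in direction against WT and mostly higher in KO C28 than in KO C22, none past the test. Of 26 listed, 2 had no reads and 20 were tested; 9 of 20 were higher in KO C22 than in WT (median -0.20) and 11 of 20 in KO C28 (median 0.33). Between the clones 14 of 20 were higher in KO C28 in Bru-seq (median 0.24, beside -0.01 over all genes) and 18 of 20 with both assays (median 0.75, beside 0.17). In Bru-seq none passed in edgeR or DESeq2, and 0 of 20 had an unadjusted p under 0.05. Of all genes, 2.01% in KO C22, 6.28% in KO C28 and 3.27% between the clones did. With both assays none passed after adjustment. For KO C22 against WT in that fit, the endocrine factor NKX6-1 and the homeobox factor HHEX had an unadjusted edgeR p under 0.05, as did 5.35% of all 23443 genes tested. NKX6-1 had 53 and 5 reads in the KO C22 Bru-seq libraries, beside 6 and 1 in those of WT. The motor neuron and pancreas factor MNX1 had -3.93 (SE 1.81) between the clones on 0 to 115 reads per library, and the nuclear receptor HNF4A had 3.50 (SE 1.93) in KO C28 against WT, with 57 reads in KO C28 replicate 2 and 3 in replicate 1. The pioneer factor FOXA2 had -1.41 (SE 0.82) for KO C22 and -0.04 (SE 0.80) for KO C28. Among 24 genes of the classical tumour subtype, 2 had no reads and only 8 passed the filter. Of these, 4 were higher in KO C22 and 3 in KO C28, none past the edgeR test. An unadjusted p under 0.05 was met by 1 of 8 in KO C22 and 2 of 8 in KO C28, beside 2.01% and 6.28% of all genes. AGR2, a secretory-pathway disulfide isomerase of that list, gave 1403 and 2061 reads for WT in Bru-seq, 62 and 191 for KO C22, and 608 and 424 for KO C28. BruUV-seq counted 1369, 138 and 241 for the same lines. It was lowest in KO C22, where GATA6 in Bru-seq was highest, with -3.66 (SE 0.69, edgeR adjusted p = 0.444) against WT, where DESeq2 passed it (adjusted p = 0.000109), as it did between the clones (adjusted p = 0.0129). In these comparisons DESeq2 passed 91 of 14418 and 53 of 17516 genes. The butyrophilin-like BTNL8 had 4.40 (SE 1.67) and the tetraspanin TSPAN8 3.59 (SE 1.51) in KO C28. Neither passed, and replicate 2 held 326 and 411 of their reads against 24 and 58 in replicate 1. Of 25 genes of the basal-like subtype, 3 had no reads and 10 were tested. In KO C22 5 of 10 were higher (median -0.10), and in KO C28 8 of 10 were (median 1.04). None passed the edgeR test or DESeq2. An unadjusted p under 0.05 was met by 1 of 10 in either clone, beside 2.01% of all genes in KO C22 and 6.28% in KO C28. The EGF receptor ligand AREG had -2.90 (SE 1.01) for KO C22 and -2.24 (SE 0.98) for KO C28, and the keratin KRT15 had 1.87 (SE 0.90) in KO C28. SLC2A1, also in that list, had -1.54 (SE 0.67) between the clones. The medians describe these libraries only. The epithelial markers were also at their highest sum in KO C28 replicate 2, and their part in these medians was not tested.

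The profile of GATA6 over the 9 libraries was set beside those of 11810 genes with a mean of at least 100 reads, by Pearson correlation of log2 CPM, as a description. Libraries of 1 line and assay share depth and clone, and the KO C28 Bru-seq pair carries most of the range of GATA6. The most alike were GLDC (0.962), a glycine cleavage enzyme on chromosome 9, SETD7 (0.947), a lysine methyltransferase on chromosome 4, and SLC2A1 (0.938), the glucose transporter GLUT1 on chromosome 1. CPEB1 (0.935), which regulates polyadenylation, and the kinase MAP2K1 (0.932) followed, both on chromosome 15. Their ranges were far narrower: GLDC went from 13.3 and 13.8 CPM in WT Bru-seq and 13.0 and 16.3 in KO C22 to 5.24 and 3.71 in KO C28, and SETD7 only from 69.7 and 76.7 in WT to 50.8 and 49.0 in KO C28. None of these 5 lies on chromosome 18. Within the GATA family the correlation with GATA6 was 0.458 for GATA4, 0.396 for GATA3, -0.532 for GATA2 and -0.583 for GATA5.

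**Figure D4:**
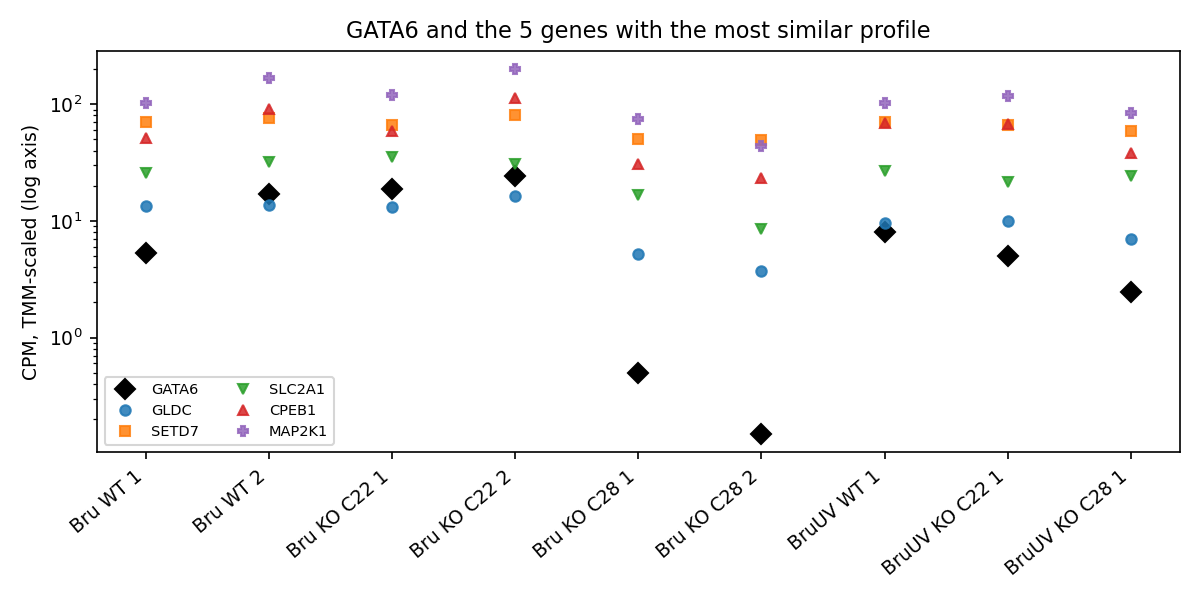
Levels in CPM, on a log axis, of GATA6 and of the 5 genes most like it over the 9 libraries, with 1 symbol per gene. All 6 have their lowest level in Bru-seq KO C28 replicate 2, at 0.148 CPM for GATA6 and 49.0 for SETD7.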

How the data were processed

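Nascent RNA of PANC-1 WT, KDM6A KO C22 and KDM6A KO C28 was measured in 6 Bru-seq and 3 BruUV-seq libraries. Per the submitters' processing notes, CASAVA 1.8.2, Bowtie2 2.3.3, STAR 2.5.3a and bedtools 2.16.2 were used and the builds hg38 and GRCh38 named; annotation release and counting rule are not given in the sources used here. The deposited tables, without column headers, hold an expected count per gene (estimated reads, partly fractional) and the authors' RPKM; both were read from the values.

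Counts were rounded and the 6 Bru-seq libraries fitted with edgeR 4.0.16 (R 4.3.3): filterByExpr, TMM, 1 coefficient per line, quasi-likelihood F test, Benjamini-Hochberg at 0.05 over 22827 genes (common biological coefficient of variation 79.3%). Each SE is the log2 fold change over the root of its F value. All 9 libraries were fitted with line and assay. DESeq2 1.42.0, RLE factors, other filters, a replicate block and left-out libraries were alternatives. BruUV-seq between lines has 1 library each and no test. CPM used TMM over 9 libraries, log2 CPM a prior count of 2. The fits were tested on simulated data.

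The 5 genes, 6 gene lists (102 symbols, all in the tables) and 8 marker lists were chosen with earlier results of these data known. Named are the 5 genes, the 4 nearest tested neighbours on each side (no antisense, LINC, small RNA, clone-named or pseudogene symbols), neighbours that passed and the 3 largest changes per comparison, list genes that passed or otherwise up to 3 with the smallest p, antisense partners with reads, and the 5 profiles most like GATA6. GATA1 and the libraries left out in the text were named after their values were seen.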

Additional observations from a re-analysis of the deposited data

Results flagged for a closer look

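For GATA6 in Bru-seq, both KO C22 libraries (18.9 and 24.5 CPM) lay above both WT libraries, and both KO C28 libraries (0.493 and 0.148 CPM) lay below them. Of all genes tested, 11.2% had both KO C22 libraries above WT and 17.5% had both KO C28 libraries below. KO C22 against WT was 1.00 (SE 0.87) on the log2 scale and passed in no setting. The difference between the clones, a log2 fold change of -6.06 for KO C28 against KO C22, had an edgeR adjusted p of 0.959. The comparisons of each clone with WT share the WT libraries. In BruUV-seq both clones lay below WT (8.11 CPM), at 4.99 CPM in KO C22 and 2.45 CPM in KO C28.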

How the results depend on the processing

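GATA6 in Bru-seq passed for KO C28 under some settings: DESeq2 gave -5.02 against WT (adjusted p = 0.000328) and -6.02 against KO C22 (7.84e-06), and edgeR with no filter gave -5.17 (0.00343) and -6.07 (0.00171), so that 1 of the GATA genes was called in each; 1 neighbour, CABLES1, was called against WT by both. Leaving out 1 library at a time, GATA6 ranged from 0.36 to 2.08 for KO C22 against WT, -6.55 to -4.01 for KO C28 against WT, -7.57 to -5.42 between the clones and -1.20 to 1.41 for BruUV-seq against Bru-seq. The last changed sign without Bru-seq KO C28 replicate 1 (-0.26), replicate 2 (-0.39) or BruUV-seq KO C28 (-1.20). For KO C22 against WT, GATA3 ranged from -1.35 to 2.13 (above 0 without WT replicate 2 or, at 0.35, KO C22 replicate 1) and GATA4 from -1.35 to 0.53 (0.26 without WT replicate 2). For KO C28 against WT, GATA3 ranged from -2.57 to 0.82, the latter without WT replicate 2, and GATA2 from -1.07, without KO C28 replicate 2, to 1.42. Between the clones GATA4 ranged from -1.68 to 0.19, the latter without KO C22 replicate 2, and GATA2 from -0.034, without KO C28 replicate 2, to 2.43. Between the assays GATA3 ranged from -0.48 to 0.91 (-0.03, -0.29 and -0.48 without Bru-seq WT replicate 1, KO C28 replicate 1 or BruUV-seq KO C28) and GATA4 from -0.40 to 0.69 (-0.02 and -0.40 without Bru-seq KO C28 replicate 2 or BruUV-seq KO C28). The cause of these changes was not tested.

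The replicate numbers are not known to pair libraries: deviations of replicate 1 correlated at 0.427 between WT and KO C22, at 6.79e-06 between WT and KO C28 and at -0.474 between the clones over 22827 genes. With the replicate block GATA6 was at 1.06, -4.93 and -5.99, GATA3 in KO C22 turned to 0.19, and no GATA gene or neighbour was called. RLE factors, a filter at a minimum count of 50, both assays together and windows of 1 and 5 Mb called no GATA gene and no neighbour. Counts called over all genes follow for KO C22 against WT, KO C28 against WT and between the clones, in this order. They were 1, 1 and 0 of 22827 in the Bru-seq fit and 2, 1 and 0 of 22827 with RLE factors. DESeq2 called 91 of 14418, 205 of 15746 and 53 of 17516. With no filter they were 43, 190 and 12 of 39086, and with both assays 37, 23 and 0 of 23443. The stricter filter (15683 genes) and the block (22827 genes) gave 0, 0 and 0. In KO C28 replicate 2 depth sets a floor of 0.445 CPM (3 reads), below which levels have no order.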
